A study of Mus musculus with 8 samples.

Results

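Nnt, Wdfy1, Entpd4, Ide and Fgfbp3 are genes known for deletions or copy number variants within stocks of the C57BL/6 mouse. Their RNA was measured in tissue of the cerebral cortex and striatum from 2 inbred strains, BTBR/R (BTBRTF/ArtRbrc, a BTBR subline used in autism research) and B6 (C57BL/6J). Probes were taken as members when the gene name printed on the array equalled 1 of these 5 names, which gave 13 of 56605 probes and 5 of 37074 gene names. The study compared the 2 strains as untreated animals, with 4 males in each strain and 1 mouse per array. The B6 mice were 4 months old, as were BTBR/R replicates 2, 3 and 4, while BTBR/R replicate 1 was 6 months old. The B6 mice came from a commercial breeder and the BTBR/R mice from a national resource center. The tissue of each mouse held cortex and striatum together, so a change in one of the regions could not be seen apart from the other. RNA was measured, and neither genotype nor gene copy number was.

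Nnt encodes nicotinamide nucleotide transhydrogenase, an enzyme of the inner mitochondrial membrane that uses the proton gradient to make NADPH, and the C57BL/6J substrain is known for an allele that lacks several internal exons. Wdfy1 encodes a FYVE domain protein that binds phosphoinositides of early endosomes and takes part in signalling from Toll-like receptors. Entpd4 encodes a nucleoside diphosphatase of the Golgi and lysosomal membranes. Ide encodes insulin-degrading enzyme, a zinc metalloprotease that cleaves insulin and amyloid-beta peptides, and Fgfbp3 encodes a secreted protein that binds fibroblast growth factors.

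The probes were 60 bases long. All 13 of their positions are given on the mm9 mouse genome build. The transcript record and the position within it come from the annotation of the array. For the pair of Nnt probes at either end of the transcript and the Wdfy1 probes with signal in both strains, on which the comparisons rest, the first 30 bases are shown 5′ to 3′, in lower case throughout because no base is singled out.
Nnt 5′ probe: tttccttagcaacttggggtcctctaaggt
Nnt 3′ probe: gtattaagtgcgcttgaatggaatgcaacc
Wdfy1 variant 2 probe: acccctcctcccattgttagctgctttgaa
Wdfy1 middle probe: tccatgaatggagacccttcatgtagctca
Wdfy1 3′ probe: cctacagcatccgtgtgactcttgctaatg
None of these probes shared a run of 30 bases with any other probe of the array on either strand. Of the 11 member probes with a RefSeq accession, 9 were found in the RefSeq gene table used here, each under the same symbol.

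The scaled signal used throughout is the log2 processed signal of a probe minus the 75th percentile of its array, and every change is BTBR/R minus B6 on that log2 scale. Detection means that the scanner software flagged the spot as well above background. A call needs both a limma adjusted p below 0.05 and a change of 2-fold or more. Of the 13 probes, 10 were detected on all 8 arrays, 2 on some arrays and 1 on none. The share of all probes that were detected was 64.5% to 66.8% in B6 mice and 53.5% to 57.2% in BTBR/R mice, and the lowest detected signal was 14.5 to 17.8 and 36.1 to 47.1. The 8 arrays shared 1 slide, and because each strain had its own slide column, the effects of column and strain cannot be told apart. The number of arrays limits the precision of each comparison.

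Among the 10 probes detected on all 8 arrays, 2 were called, both for Wdfy1 and both higher in BTBR/R mice. Over all probes detected on all 8 arrays, 2.2% were called, of which those higher made 1.04% and those lower 1.16%. One further Wdfy1 probe, detected on no array, was also called higher, which made 3 of the 13 members (23.1%) where 22.4% of all probes were called, 20.2% higher and 2.27% lower. Of probes detected on no array, 67.7% were called higher, so a call of that kind was common on these arrays. At any size of change, 3 of the 10 detected members (30%) had an adjusted p below 0.05, beside 26.9% of all detected probes. The strains did not overlap for 4 of the 10 (40%), beside 32.6%. The median change of the 10 members was 0.067 and that of all detected probes was 0.00145.

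**Figure D1:**
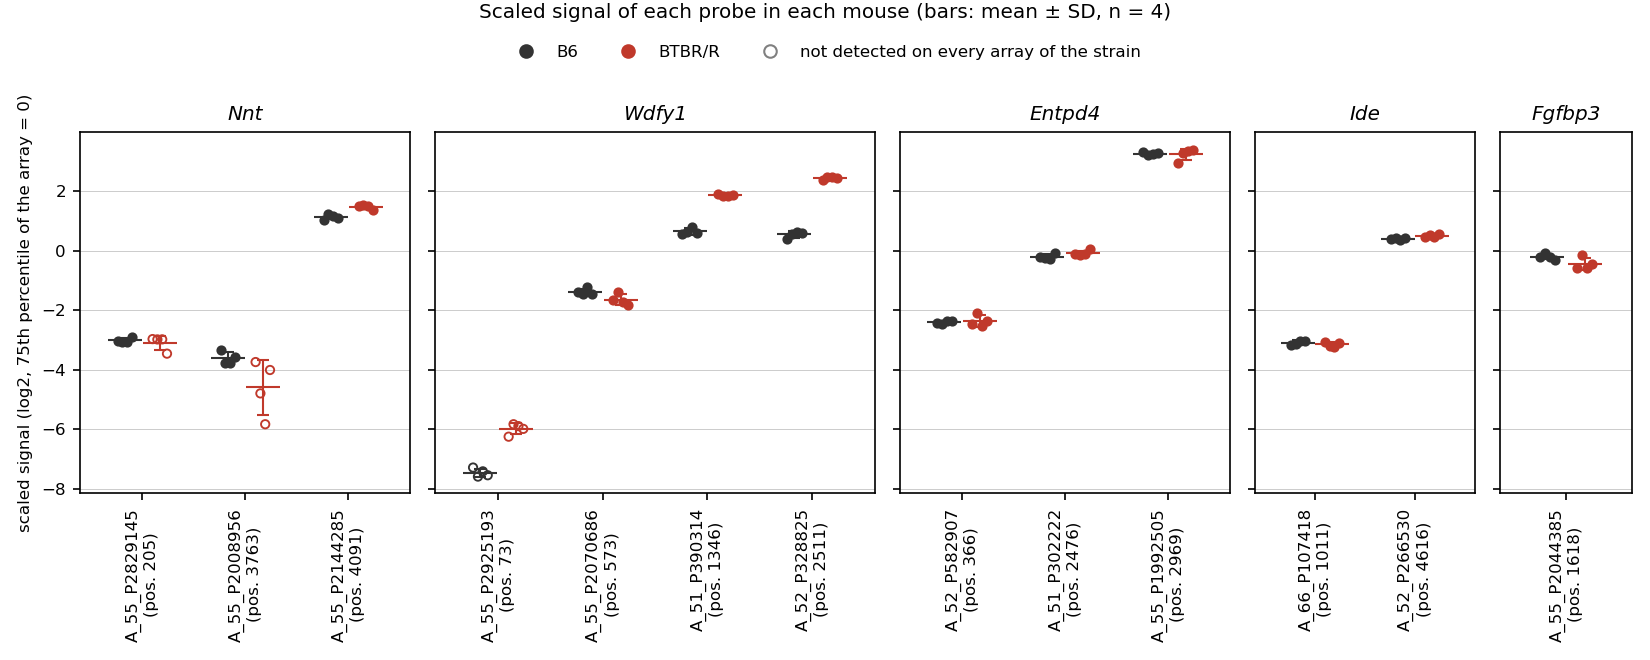
Scaled signal (log2, vertical axis) of the 13 probes in each mouse, grouped by gene and ordered from 5′ to 3′ along the genome, with B6 mice in black, BTBR/R mice in red and bars for the mean ± SD of 4 mice. Only the middle and 3′ probes of Wdfy1 show strains more than 1 log2 unit apart with signal on all 8 arrays, and open points mark probes not detected on every array of that strain.

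BTBR/R mice had 3.72-fold more signal than B6 mice at the Wdfy1 3′ probe, at chr1:79700817-79700876 on the minus strand, position 2511 of the record of transcript variant 1 (NM_001111279). The scaled signals were 0.39, 0.57, 0.64 and 0.61 in B6 replicates 1 to 4 and 2.38, 2.47, 2.48 and 2.46 in BTBR/R replicates 1 to 4. Every BTBR/R mouse lay at least 1.74 above every B6 mouse. The change was 1.90 (standard error 0.07, 95% interval 1.74 to 2.05, limma adjusted p = 4.3e-06), and 61 of the 28547 probes detected on all 8 arrays changed as much or more in that direction.

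The Wdfy1 middle probe, at chr1:79701982-79702041 and position 1346 of the same record, was 2.32-fold higher in BTBR/R mice. Its scaled signals were 0.58, 0.63, 0.80 and 0.59 in B6 mice and 1.90, 1.84, 1.85 and 1.86 in BTBR/R mice. The strains were again fully apart, and the BTBR/R mice differed among themselves by less than the B6 mice did (SD 0.03 and 0.10, n = 4 each). The change was 1.21 (standard error 0.06, 95% interval 1.07 to 1.36, limma adjusted p = 2.12e-05).

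The variant 2 probe of Wdfy1, at chr1:79723062-79723121 and assigned to another record (NM_027057, transcript variant 2), did not pass the test. Its scaled signals were -1.38, -1.47, -1.23 and -1.46 in B6 mice and -1.64, -1.39, -1.72 and -1.82 in BTBR/R mice. BTBR/R replicate 2 lay within the B6 range and the other BTBR/R mice lay below it. The change was -0.26 (standard error 0.10, 95% interval -0.50 to -0.014, limma adjusted p = 0.0895), so a 2-fold rise lies outside the interval. Without BTBR/R replicate 2, the change was -0.34 (limma adjusted p = 0.0195), still short of 2-fold. No other of the 21 alternative settings gave an adjusted p below 0.05.

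The 5′-most Wdfy1 probe, at chr1:79758377-79758436 and assigned to an Ensembl transcript record, was not well above background on any array. No fold can be given for it, although its values of -7.58 to -7.28 in B6 mice and -6.24 to -5.82 in BTBR/R mice met both thresholds for a call (limma adjusted p = 2.76e-05). With normexp background correction its change was 0.080, and when every value below the highest detection limit was set to that limit it was 0.

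Whether the Wdfy1 probes changed by unequal amounts was tested within arrays by subtracting the scaled signal of one probe from that of another in the same mouse. The middle probe changed by 1.47 more than the variant 2 probe (standard error 0.10) and the 3′ probe by 2.15 more (standard error 0.12). In both, the 4 BTBR/R mice lay outside the B6 range, and the exact two-sided permutation test gave p = 0.0286, the smallest that 4 mice against 4 allow, or 0.0714 after Benjamini-Hochberg adjustment over the 5 planned pairs. The 3′ probe also changed by 0.68 more than the middle probe, which lies 1.17 kb away (standard error 0.06, exact permutation p = 0.0286, or 0.05 adjusted over 7 pairs). That pair and the Nnt pair were added after the values had been seen. Whether the strains differ in sequence under any of the probes was not tested, so a difference in binding and a difference in RNA level cannot be told apart at a single probe.

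**Figure D2:**
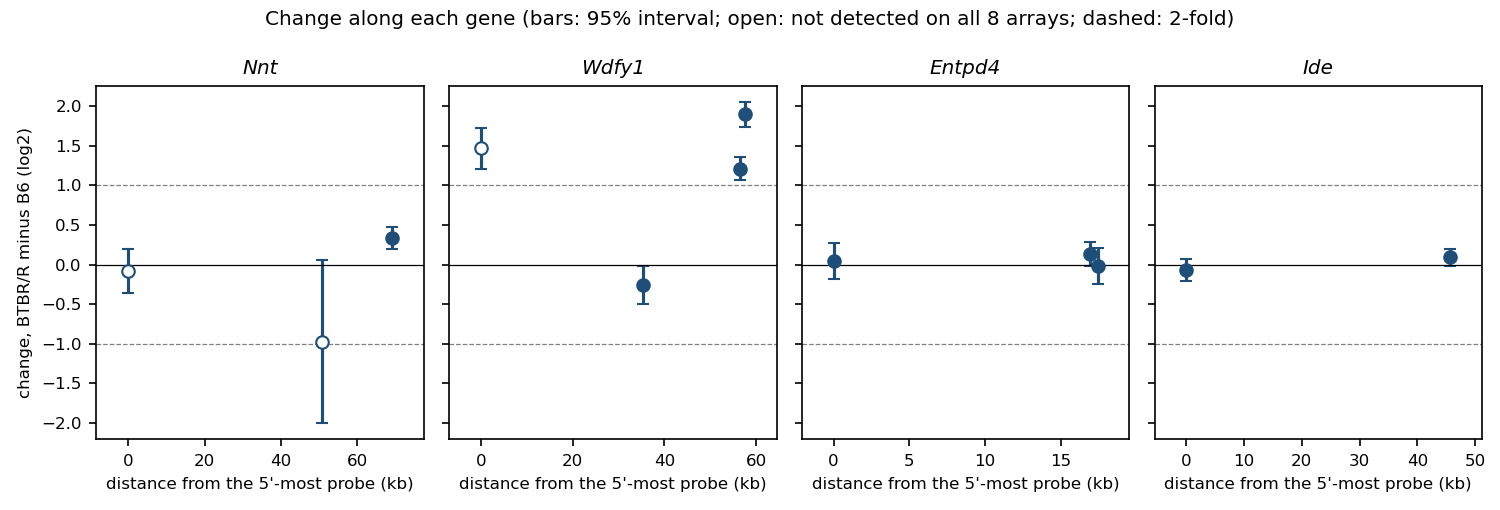
Change between strains (BTBR/R minus B6, log2, vertical axis) of each probe of Nnt, Wdfy1, Entpd4 and Ide against its distance in kb from the 5′-most probe of the gene (horizontal axis), with 95% intervals, open circles for probes not detected on all 8 arrays and dashed lines at 2-fold. The middle and 3′ probes of Wdfy1 stand at 1.21 and 1.90, while all detected probes of Entpd4 and Ide lie between -0.063 and 0.13.

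For Nnt, BTBR/R mice had 1.27-fold more signal at the 3′ probe, at chr13:120124335-120124394 on the minus strand, position 4091 of NM_008710. The scaled signals were 1.04, 1.22, 1.16 and 1.12 in B6 mice and 1.52, 1.52, 1.49 and 1.37 in BTBR/R mice. The lowest BTBR/R mouse lay 0.15 above the highest B6 mouse. The change of 0.34 (standard error 0.06, 95% interval 0.20 to 0.48) passed the adjusted p threshold (limma adjusted p = 0.003) but not the 2-fold threshold. Of the 28547 detected probes, 2246 changed as much or more in that direction, and 13.0% were higher in BTBR/R mice with an adjusted p below 0.05.

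The Nnt 5′ probe, at chr13:120193406-120193465 and position 205 of NM_008710, was detected on every B6 array and on 3 of the 4 BTBR/R arrays. Its scaled signals were -3.03, -3.06, -3.06 and -2.89 in B6 mice and -2.96, -2.98, -2.97 and -3.45 in BTBR/R mice. BTBR/R replicate 4, the array without detection, lay below all the other mice, and the remaining BTBR/R mice lay within the B6 range. The change was -0.081 (95% interval -0.36 to 0.20, limma adjusted p = 0.633). Without BTBR/R replicate 4 the change was 0.039.

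The array annotation assigned both of these Nnt probes to a coding and a non-coding RefSeq record of the gene. Relative to the 5′ probe, the 3′ probe changed by 0.42 (standard error 0.11, exact permutation p = 0.0286, or 0.05 adjusted over 7 pairs), and by 0.34 without BTBR/R replicate 4. With normexp background correction the probes lay closer, the 5′ probe changing by 0.074 and the 3′ probe by 0.28. Exon boundaries were not used here, and whether any Nnt probe covers the exons that the C57BL/6J allele lacks was not tested.

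The remaining Nnt probe, at chr13:120142585-120142644 and assigned to the cDNA AK050478, lies between the other two. It was detected on every B6 array, with values of -3.32, -3.78, -3.78 and -3.57, and only on that of replicate 1 among the BTBR/R arrays, with values of -3.74, -4.79, -5.82 and -4.00. The change did not pass the test (limma adjusted p = 0.12). The SD was 0.94 in BTBR/R mice and 0.22 in B6 mice (n = 4 each), the widest spread of any member. The difference of the means, -0.97, rests on signals under the detection limit in 3 BTBR/R mice, and with those arrays held at their limits the strains were 1.02-fold apart. It was -0.56 without BTBR/R replicate 3 and -0.13 with normexp background correction.

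Entpd4 was detected by 3 probes on all 8 arrays and none of them passed the test. At the 5′ probe, at chr14:69967249-69967308 and position 366 of NM_026174, the scaled signals were -2.41, -2.46, -2.37 and -2.35 in B6 mice and -2.47, -2.09, -2.52 and -2.36 in BTBR/R mice. At the 3′-most probe, at chr14:69984685-69984744, they were 3.30, 3.21, 3.25 and 3.27 in B6 mice and 2.95, 3.27, 3.35 and 3.37 in BTBR/R mice. The strains overlapped at both, with BTBR/R replicate 2 high at the former and replicate 1 low at the latter.

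The remaining Entpd4 probe, at chr14:69984192-69984251, lay at -0.29 to -0.09 in B6 mice and at -0.13 to 0.04 in BTBR/R mice. From 5′ to 3′ the changes were 0.040 (95% interval -0.19 to 0.27), 0.13 (-0.018 to 0.28) and -0.023 (-0.25 to 0.20), with limma adjusted p-values of 0.776, 0.146 and 0.876. Each interval therefore excluded a fold above 1.22 or below 0.841. The RefSeq table lists a copy of this gene, Entpd4b, as a gene of its own, no probe of the array carried that name, and whether the Entpd4 probes also bind RNA of the copy was not tested. The middle probe shared a run of at least 30 bases with a probe of the array for the opposite strand.

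Ide, measured by 2 probes on chromosome 19, differed little between the strains. At chr19:37343642-37343701, position 4616 of NM_031156, the scaled signals were 0.41, 0.43, 0.37 and 0.44 in B6 mice and 0.47, 0.54, 0.46 and 0.55 in BTBR/R mice. The strains did not overlap, by a margin of 0.025, yet the change of 0.094 (95% interval -0.012 to 0.20) did not pass the test (limma adjusted p = 0.142). The methods' t-test gave an adjusted p of 0.0472 for the same values, with the fold at 1.07. That was the only 1 of 21 alternative settings with an adjusted p below 0.05.

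At the 5′ probe of Ide, at chr19:37389339-37389398 and position 1011, the values were -3.15 to -3.01 in B6 mice and -3.22 to -3.07 in BTBR/R mice. These overlapped, and the change was -0.063 (95% interval -0.20 to 0.076, limma adjusted p = 0.445). The change of the 3′ probe relative to the 5′ probe was 0.16 (standard error 0.06, exact permutation p = 0.0857).

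Fgfbp3 had a single probe, at chr19:36992118-36992177 on the chromosome that also carries Ide. Its scaled signals were -0.19, -0.09, -0.22 and -0.30 in B6 mice and -0.58, -0.15, -0.58 and -0.45 in BTBR/R mice. BTBR/R replicate 2 lay within the B6 range and the other BTBR/R mice lay below it. The change was -0.24 (95% interval -0.49 to 0.013, limma adjusted p = 0.12). Without BTBR/R replicate 2 it was -0.33 (limma adjusted p = 0.0108), short of 2-fold. Of 21 alternative settings, only this 1 gave an adjusted p below 0.05.

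To see whether the change at Wdfy1 and Nnt extended to the genes beside them, every probe within 500 kb of a member was read from the same comparison. Around Wdfy1, 9 probes of 6 gene names were detected on all 8 arrays and none was called, with changes from -0.95 to 0.64. The limits of that range were probes of Serpine2, a serine protease inhibitor of the brain (-0.95, limma adjusted p = 8.25e-05), and of Ap1s3, an adaptor subunit of clathrin-coated vesicles (0.64, limma adjusted p = 0.000636). A separate probe of each changed by -0.31 and 0.16, and the 2 probes of Mrpl44, a mitochondrial ribosomal protein gene, by -0.39 and -0.036. These genes were named after their values had been seen.

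Around Nnt, 6 probes of 3 gene names were detected on all 8 arrays, all of them on its 5′ side. The only probe on its 3′ side was detected on no array, so that side could not be read. Of the 6 probes, 2 were called, both lower in BTBR/R mice and both for 4833420G17Rik. The probe of this gene at chr13:120274768-120274827 had scaled signals of 2.50, 2.45, 2.38 and 2.54 in B6 mice and 1.19, 1.13, 1.16 and 1.15 in BTBR/R mice, a signal 2.48 times higher in B6 mice (standard error of the log2 change 0.05, limma adjusted p = 5.89e-06). The other, placed at chr13:120255084-120255704, had -0.54, -0.57, -0.60 and -0.63 in B6 mice and -2.25, -2.28, -2.26 and -2.45 in BTBR/R mice, 3.31-fold apart (limma adjusted p = 3.52e-06). At both probes no BTBR/R mouse reached the B6 range.

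Paip1, which encodes a partner of the poly(A)-binding protein and whose probes lie between those of Nnt and 4833420G17Rik, changed by -0.37 and -0.052. The probes of Gm7120, named after their values had been seen, did not move alike. Those detected on all 8 arrays changed by -0.64 and 0.92, and another, with detection in all 4 B6 mice but none of the BTBR/R mice, was at least 3.16-fold lower by the detection limits, while its change with normexp was -0.95, short of 2-fold. A further Gm7120 probe was detected in 3 B6 mice and in no BTBR/R mouse. The probe of 3110070M22Rik at chr13:120276677-120276736, seen in 4 B6 mice and 1 BTBR/R mouse, was called lower in BTBR/R mice by at least 2.13-fold (limma adjusted p = 0.0127), but its change with normexp was -0.57, which is no longer called. The probe named by the transcript record ENSMUST00000144599 lies between the outer Nnt probes and was detected on no array.

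None of the neighbours detected on all 8 arrays was called near Entpd4 (11 probes, changes of -0.21 to 0.12), Ide (11 probes, -0.21 to 0.37) or Fgfbp3 (13 probes, -0.21 to 0.37), where the windows of Ide and Fgfbp3 share probes. Across all 5 windows, 20 of the 32 neighbour probes detected on no array (62.5%) were called higher, beside 67.7% of such probes over the whole array.

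**Figure D3:**
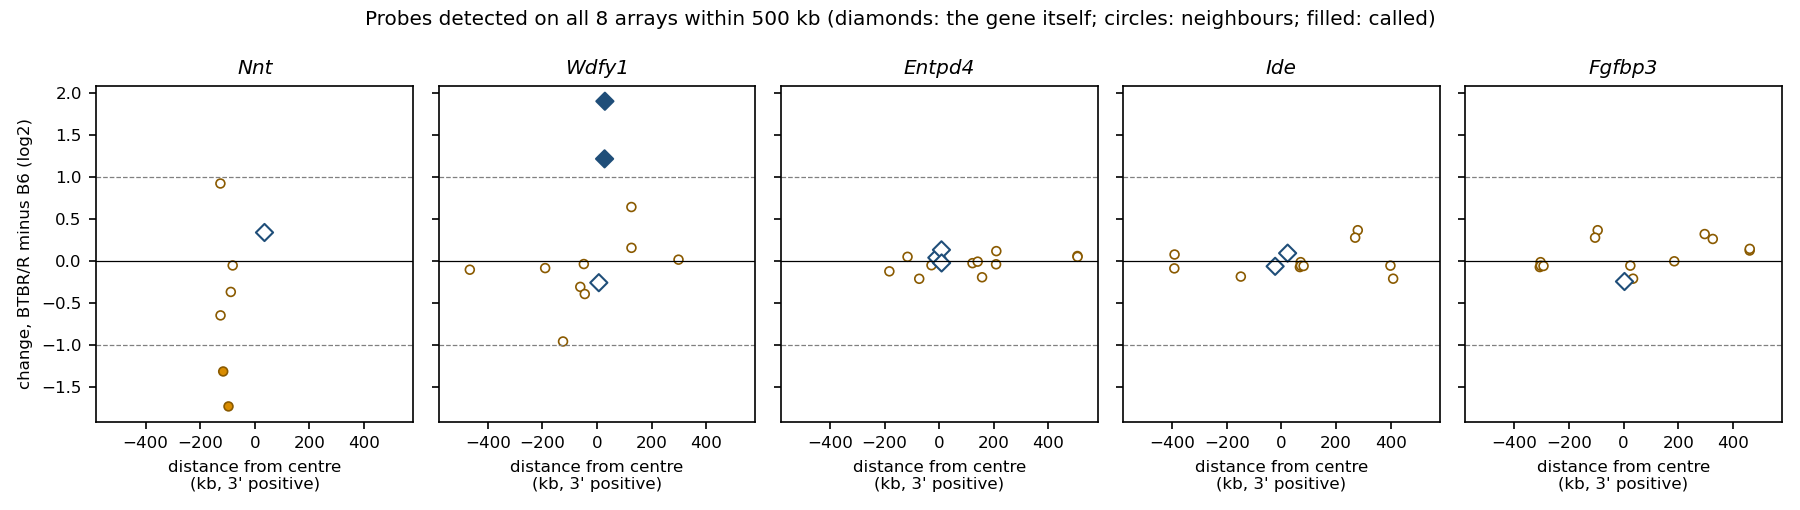
Change between strains (BTBR/R minus B6, log2, vertical axis) of probes detected on all 8 arrays against their distance in kb from the centre of each gene (horizontal axis, 3′ side positive), with diamonds for the gene itself, circles for neighbours within 500 kb, filled symbols for called probes and dashed lines at 2-fold. The called probes are those of Wdfy1 at 1.21 and 1.90 and those of 4833420G17Rik, beside Nnt, at -1.73 and -1.31.

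Genes of related pathways were read by the brightest probe of each gene. Of 22 genes of NADPH supply and peroxide removal, all detected on all 8 arrays, 1 was called higher and none lower in BTBR/R mice, and the median change was 0.073. Over all probes detected on all 8 arrays, 1.04% were called higher and 1.16% lower. The called gene was Sod2, the superoxide dismutase of the mitochondrial matrix, which rose 2.09-fold from 2.19 ± 0.09 to 3.25 ± 0.08 (SD, n = 4 each, limma adjusted p = 2.76e-05). Me3, the mitochondrial NADP-dependent malic enzyme, changed by 0.61 (limma adjusted p = 0.000612) at its brightest probe and by 1.39 at another, which was called. Gsr, glutathione reductase, changed by 0.43 (limma adjusted p = 0.000183).

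Of 22 genes of fibroblast growth factor binding and signalling, 18 were detected on all 8 arrays, 1 was called lower and none higher. That gene was Fgf9, a secreted growth factor of neurons and glia, which fell 2.40-fold from 1.82 ± 0.02 to 0.56 ± 0.06 (SD, n = 4 each, limma adjusted p = 5.16e-06). Fgfbp1, which encodes a related binding protein, changed by 0.64 (limma adjusted p = 0.00642) and by 0.69 at its other probe.

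No gene was called among 16 of peptide degradation and insulin receptors, 11 nucleotidases or 14 of the FYVE domain and Toll-like receptor group. Their median changes were 0.091, 0.12 and 0.093, beside 0.00145 over all detected probes. The lists hold only the brightest probe of each gene, while the latter counts every detected probe, dim ones included, so the measures are unlike. At any size of change, 6 of the 16, 2 of the 9 nucleotidases detected on all 8 arrays and 2 of the 14 were higher with a limma adjusted p below 0.05, and 1, 0 and 1 were lower. In the NADPH and fibroblast growth factor lists, 4 of 22 and 4 of 18 detected genes were higher and 0 and 1 lower. Over all detected probes, 13.0% were higher and 26.9% differed either way by the same threshold. Irs2 and Igf1r, which encode an insulin receptor substrate and the receptor of insulin-like growth factor, changed by 0.44 and 0.43 (0.25 to 0.75 at the other 3 Igf1r probes), and Nrd1, a metalloprotease related to Ide, by -0.17. The nucleotidases Entpd3, a relative of Entpd4 on the cell surface, and Enpp1 changed by 0.54 and 0.85. Wdfy2, Wdfy3 and Wdfy4 changed by -0.083, -0.15 and -0.24 (limma adjusted p = 0.335, 0.23 and 0.00547). Nfkb1 encodes a subunit of the transcription factor that acts after Toll-like receptors. Its brightest probe changed by 0.32 and its other probes by 0.078 and 0.14.

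As a description of likeness, the Pearson correlation of scaled signals over the 8 arrays was taken between the brightest probe of each member and every other probe detected on all 8 arrays. All points share the contrast between strains. For the Wdfy1 3′ probe, 1057 probes of other genes had r above 0.95, the highest of them in Mss51 (r = 0.999). The Nnt 3′ probe had 186 such probes, led by Cetn3 (r = 0.992), Eif2ak2 (0.990) and Chd8 (0.989). Ide was most like Ptov1 (0.993), Fgfbp3 most like Hsph1 (0.973) and Entpd4 most like 2210409E12Rik (0.959).

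Marker genes were read as a description of the tissue. All 3 neuron, 3 cortex and 4 striatum markers were detected on all 8 arrays. So were all 3 thalamus and 3 choroid plexus markers, so detection cannot check the dissection. The thalamus markers lay at -0.58 to 1.35 in B6 mice and -0.63 to 0.71 in BTBR/R mice. The choroid plexus markers lay at -1.67 to 1.42 and -0.70 to 0.78. The mean scaled signals of 4 of 10 marker lists did not overlap between the strains. Among single probes detected on all 8 arrays, the strains did not overlap for 32.6%. The 3 neuron markers lay at 6.22 to 6.29 in B6 mice and 6.14 to 6.21 in BTBR/R mice, the 3 microglia markers at 2.74 to 2.78 and 2.47 to 2.65, and the 3 endothelial markers at 1.14 to 1.18 and 0.80 to 1.04. The 2 red blood cell markers on the array lay at 1.18 to 3.16 and 0.60 to 0.88. In all 4 lists the BTBR/R mice were lower. The overlapping lists differed by -0.19 (astrocytes), -0.20 (oligodendrocytes), -0.10 (thalamus), -0.015 (striatum), -0.0019 (choroid plexus) and 0.040 (cortex). The part of these differences in the changes of Wdfy1 and Nnt was not tested. Fewer cells of a type and less RNA per cell cannot be told apart in such tissue.

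Over the alternative processing settings, the change of the Wdfy1 3′ probe stayed between 1.82 and 1.93 and that of the middle probe between 1.13 and 1.26, with an adjusted p below 0.05 in all 21 settings. The Nnt 3′ probe stayed between 0.28 and 0.38 and also kept an adjusted p below 0.05 in all 21.

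**Figure D4:**
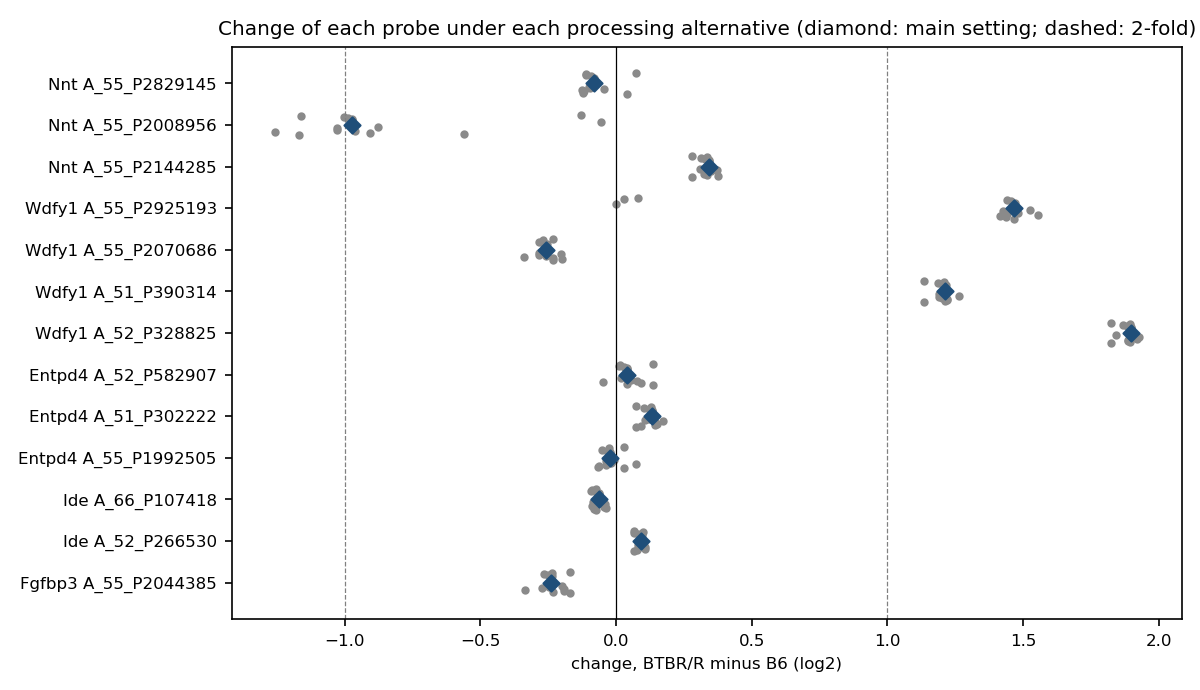
Change between strains (BTBR/R minus B6, log2, horizontal axis) of each of the 13 probes under the main setting (diamonds) and under each alternative (grey points), with dashed lines at 2-fold. The middle and 3′ probes of Wdfy1 stay above the 2-fold line under all alternatives, while the undetected Wdfy1 probe reaches values from 0 to 1.55.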

How the data were processed

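Total RNA of 8 mice was hybridized to 1-colour Agilent mouse arrays. The authors deposited Feature Extraction 10.7.3.1 intensities (processed signal, mean signal and local background) with flags scored by the software, and log2 values from GeneSpring, which lay within 0.01 of a shifted log2 processed signal for over 99.97% of probes, with 1 shift per array. Control spots and 36 to 52 outlier spots per array were left out, repeated spots were averaged, and 56605 probes remained. The processed signals were put on the log2 scale, the 75th percentile of the array was subtracted (535 to 589 before log2), and strain was fitted with limma 3.58.1 under R 4.3.3, p-values being adjusted by Benjamini-Hochberg across the 56605 probes. Tested on simulated data of 56583 probes, the fit called 77 of 100 changes of 1.5 and 85 of 100 changes of 3 (log2), and 4 unchanged probes. The simulation drew unchanged probes of both strains around the B6 mean, so it held no strain difference in background. It therefore cannot speak for dim probes on these arrays, where 67.7% of probes detected on no array were called higher. Exact tests and figures used scipy 1.17.1 and matplotlib 3.10.9, with pandas 2.3.3 and numpy 2.4.6, under Python 3.11.15. If a strain lacked detection of a probe on some or all arrays, any fold given is a bound, for which a dim array counts at its detection limit unless its own signal is higher.

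The samples were grouped by the strain in their titles, and the mice are separate animals. The 5 genes and all lists were chosen with earlier results of these data known. Every probe of the 5 genes is described, with called neighbours detected on all 8 arrays, called pathway genes and the most similar genes. The alternatives were normexp (offset 50), quantile normalization, other scalings, the authors' values, filters and a floor for dim probes, kept outliers, the methods' t-test, trended robust limma, a replicate block and leaving out each mouse. Normexp with the filter for detection on all 8 arrays, and 2 further probe pairs, were added after seeing the data.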

Additional observations from a re-analysis of the deposited data

Results flagged for a closer look

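Of 34 sets of 4 mice examined (each named probe in each strain), 2 held a mouse far from the rest, and chance flags about 1 set in 20. At the Nnt 5′ probe, BTBR/R replicate 4 lay at -3.45 while the other BTBR/R mice lay between -2.98 and -2.96. At the Entpd4 probe at chr14:69984192-69984251, BTBR/R replicate 4 lay at 0.043 and the others between -0.13 and -0.11. Neither set was called as changed between the strains.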

How the results depend on the processing

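The calls of the middle and 3′ Wdfy1 probes, of 4833420G17Rik, Sod2 and Fgf9 were kept under every alternative in which they were tested. Of the 3 called member probes, 2 were left under normexp, quantile normalization, the floor and both detection filters, because the Wdfy1 probe detected on no array was then not called (0.080, 0.031 and 0 with normexp, quantile normalization and the floor) or not tested. Over all probes, 12697 calls became 563 with normexp, 2200 with quantile normalization, 1557 and 631 with the filters for detection in 1 strain and on all 8 arrays, and 789 with the floor, and ranged from 11792 to 12929 on leaving out each mouse. The 27 called neighbours became 2, 6, 5, 2 and 3 in the same order (25 to 29 without single mice). Without single mice, the members stayed at 3, the pathway genes at 2 to 3 and the marker lists apart at 4 to 6. No probe pair passed adjustment in the main setting, and 3 of 5 did with normexp, quantile normalization, or without BTBR/R replicate 1 or 2 (0 to 3 over single mice), each at an exact permutation p that cannot go lower. Small uncalled changes turned sign: the Nnt 5′ probe with normexp (0.074) and without BTBR/R replicate 4 (-0.12 to 0.039 over single mice left out), the Entpd4 5′ probe without BTBR/R replicate 2 (-0.049 to 0.093 over single mice), the Entpd4 3′-most probe with normexp (0.029, with or without the filter) and without BTBR/R replicate 1 (-0.066 to 0.072 over single mice), the pair of Entpd4 5′ and next probes with normexp (-0.064), and the pair of Entpd4 5′ and 3′-most probes without BTBR/R replicate 2 (-0.15 to 0.014 over single mice). The cause was not tested. Same-numbered mice did not deviate together (r of -0.070 to 0.16 over 28547 probes), and a replicate block left 11693 calls in all, 3 of them members, and 24 neighbours, 2 pathway genes and 0 probe pairs. Detection limits on the BTBR/R arrays bound what can be said of the dim Nnt probes.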
